A study of Homo sapiens with 9 samples.

Results

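Cells of the human glioblastoma line U87 that carried a doubly substituted isocitrate dehydrogenase 1 (IDH1) were compared with cells that carried the empty vector. The comparison took 6 of the 9 RNA-seq libraries of the series, 3 in each group, and all genes of the count table. The C269S group stably expressed IDH1 with both the R132H and the C269S substitution, the latter putting serine in place of a cysteine. The PCDH group stably carried the vector alone, whose name is unrelated to protocadherin genes such as PCDH10. The remaining 3 libraries (IDH1mt) came from U87 cells with R132H as the single substitution, and they entered the shared estimate of the spread and the single-gene tests between the mutants. All groups shared the parental line and a DMEM medium with fetal bovine serum. The study asked how attachment of palmitate to the mutant enzyme by the enzyme itself bears on gene expression, and C269S removes the cysteine concerned.

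The labels give neither the number of selected lines or clones behind each construct nor whether the replicates of a group were separate cultures. The p-values therefore rest on library-to-library spread, and that spread may be technical. None of the groups carried introduced IDH1 without R132H, so effects of more IDH1, of R132H, of the serine and of the selected line cannot be told apart in the comparison of C269S with PCDH.

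IDH1 is the cytosolic enzyme that oxidises isocitrate to 2-oxoglutarate and makes NADPH. The R132H enzyme instead reduces 2-oxoglutarate to 2-hydroxyglutarate, which can inhibit enzymes that use 2-oxoglutarate, among them histone and DNA demethylases and the prolyl hydroxylases that mark hypoxia-inducible factors for degradation. Palmitoylation attaches a fatty acid through the sulphur of a cysteine, an atom that serine lacks, and often changes where a protein sits in the cell.

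Both substituted codons lie in the coding sequence of IDH1 on the minus strand of chromosome 2. They are shown in the unaltered reference sequence, 5′ to 3′ on the coding strand, with the codon in capitals, because the gene counts cannot read either change.

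R132H codon: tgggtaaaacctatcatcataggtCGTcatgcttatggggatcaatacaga

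C269S codon: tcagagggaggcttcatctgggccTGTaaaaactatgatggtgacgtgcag

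The R132H codon (arginine in the reference) occupies chr2:208248387-208248389 in exon 4 and the C269S codon (cysteine) chr2:208242037-208242039 in exon 7, on GRCh38 in GENCODE release 29 transcript ENST00000345146.6, which has 414 codons and 10 exons. The level of IDH1 checks which libraries carried an introduced enzyme. IDH1 (ENSG00000138413) stood at 112, 102 and 118 CPM (read counts scaled to a common library size) in the PCDH libraries and at 774, 724 and 718 CPM in the C269S libraries. Every C269S library lay above every PCDH library. The log2 fold change was 2.74 (SE 0.06, adjusted p = 2.4e-25 in edgeR's quasi-likelihood test with Benjamini-Hochberg adjustment), a 6.68-fold rise from 110.6 ± 7.97 to 739 ± 30.3 CPM (SD, n = 3 each). In IDH1mt it was at 677 CPM on average, and the difference between the mutants (0.13, adjusted p = 0.23 in edgeR) did not pass the test. The introduced and the cell's own transcript are counted together, so these counts do not check the C269S label against the IDH1mt label.

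Total counts in the 6 libraries ranged from 19474839 to 23172684. PCDH replicate 3 stood apart from its group: the chi-square of its gene counts per degree of freedom was 9.86 and 10.7 against PCDH replicates 1 and 2, where the other within-group pairs of the series gave 3.63 to 6.13. Results were therefore also computed with each library left out, and those values stand beside the results they change. The mitochondrial genome took 3.15 ± 0.220% of counts in PCDH and 3.27 ± 0.0838% in C269S (SD, n = 3 each; exact two-sided permutation p = 0.7, where 0.1 is the smallest possible). Of the glioblastoma and astrocyte markers, VIM, CD44, CHI3L1, EGFR and NES were detected in all 6 libraries, GFAP lay between 2.84 and 4.18 CPM, SOX2 at or below 0.133 CPM, and AQP4 at 0. The summed markers of macrophages (8.61 to 15.1 CPM), endothelium (9.75 to 12.9), oligodendrocytes (1.198 to 3.37), epithelium (3.33 to 5.10) and T and B cells (0.919 to 1.67) were low in both groups, and neuronal markers summed to 74.9 to 91.1 CPM. TYROBP, C1QA, CD3E, CD3D and MS4A1 were at 0 in all 6. The fibroblast list summed to 3689 to 3860 CPM in PCDH and 2753 to 3013 CPM in C269S, almost all of it from COL1A1 and COL1A2, which are described with the collagens.

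The C269S libraries differed from PCDH in a modest set of genes, mostly by small amounts. Genes for several secreted cytokines, some feedback inhibitors of the ERK kinases, some protease inhibitors, some adhesion molecules and fibronectin were higher. Chains of type I and type XI collagen, lysyl oxidase, several glycolytic enzymes and the transcriptional inhibitor ID3 were lower. Of 16874 genes tested, 239 (1.42%) were called at an adjusted p under 0.05, 149 higher (0.883%) and 90 lower (0.533%). The median size was 1.29-fold among those higher and 1.31-fold among those lower. Of the called genes, 32 higher and 17 lower differed by over 1.5-fold, and 9 and 3 by over 2-fold. The groups did not overlap in 147 of the 149 and 89 of the 90, against 15.2% of all genes tested. The same fit called 14.1% of genes for IDH1mt against PCDH (7.18% higher, 6.9% lower) and 4.9% for C269S against IDH1mt (2.29% higher, 2.61% lower). These comparisons share libraries with C269S against PCDH, so only each comparison's own value for a gene is given.

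**Figure D1:**
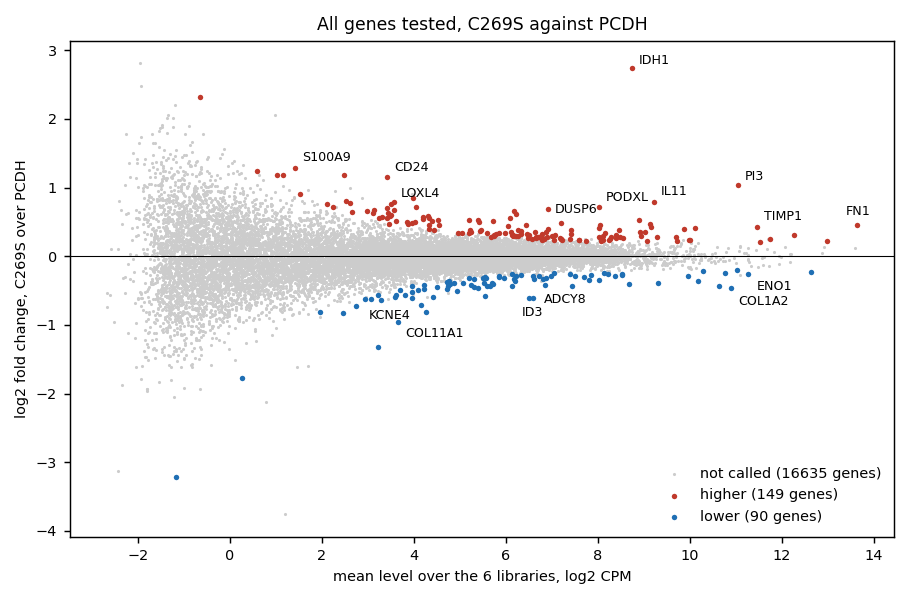
Each point is 1 of the 16874 genes tested, with its mean level over the 6 libraries (log2 CPM, horizontal) and its log2 fold change of C269S over PCDH (vertical). Red and blue points are the 149 genes called higher and the 90 called lower, and IDH1, at 2.74, stands far above the other called genes of its level.

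More was called among genes with more counts. With the genes split by mean CPM into 4 groups of like size, it was 0.142% in the lowest, where the median SE of the log2 fold change was 0.49, and 3.29% in the highest, where the median SE was 0.07. Small changes were therefore detectable mainly in genes with many counts. Counts in the gene lists below stand beside these shares and the 1.42% over all genes, and no set test was run. Where list counts at an unadjusted p under 0.05 are given, 2019 of all genes tested (12%) passed that threshold in edgeR. Some genes, such as LIF, ANGPTL4, LOX and SLC2A1, are counted in more than a single list. Protein-coding genes made up 145 of the 149 and 82 of the 90. Over chromosomes the median log2 fold change lay between -0.04 (chromosome 19) and 0.09 (the mitochondrial genome), beside -0.01 over all genes. Of the nuclear chromosomes, chromosome 21 had the highest share called (3.05% of 197 genes, 1 higher and 5 lower), and COL6A1 and COL6A2, which are neighbours, were among the lower ones.

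The size of the list depended on single libraries. Without PCDH replicate 3 there were 548 genes higher and 355 lower, and 229 of the 239 were among them. Without PCDH replicates 1 and 2 in turn, the counts were 85 higher and 49 lower, and 92 higher and 42 lower. Without C269S replicates 1, 2 and 3 they were 65 and 38, 85 and 40, and 155 and 96. A set of 79 genes, 53 higher and 26 lower, was called in all 6 of these fits. Where a gene named here lost its call in any of them, that is stated with it.

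**Figure D2:**
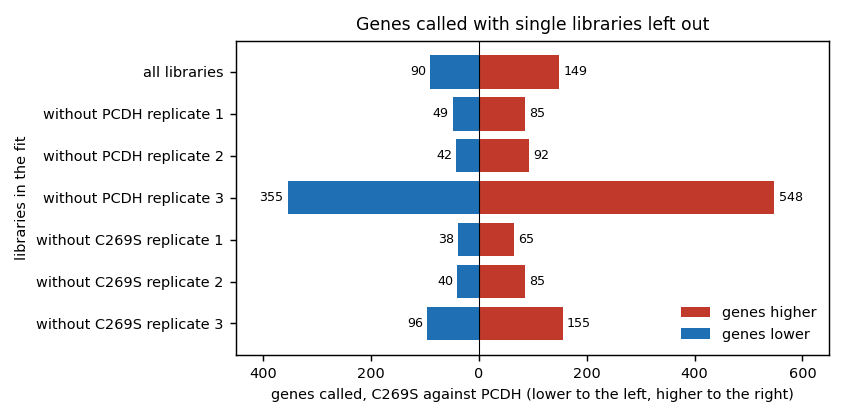
Bars give the number of genes called higher (red, to the right) and lower (blue, to the left) for C269S against PCDH, with all libraries and with each of the 6 left out. The fit without PCDH replicate 3 reached 548 and 355, and the fit without C269S replicate 1 gave 65 and 38.

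Among called protein-coding genes that averaged at least 1 log2 CPM and whose groups did not overlap, PI3, CD24, SUSD2, S100A9 and ACKR3 rose by over 2-fold besides IDH1. Below that level TUBB4A, a beta-tubulin singled out after its values were seen, had a larger value (2.32, adjusted p = 0.032 in edgeR), at 0.210 CPM in PCDH and 1.07 CPM in C269S on average, and it was not called without PCDH replicates 1 or 2 or C269S replicates 1 or 3 (highest adjusted p = 0.16). PI3, which encodes elafin, an inhibitor of neutrophil elastase (ENSG00000124102, chr20:45174876-45176544 on GRCh38), had 1425, 1369 and 1336 CPM in PCDH and 2682, 2739 and 3010 CPM in C269S. The groups were far apart, and the log2 fold change was 1.03 (SE 0.05, adjusted p = 2.4e-15 in edgeR). CD24, a small glycosylated adhesion molecule whose reads can be shared with near-identical copies, went from 6.93, 6.32 and 6.43 to 14.6, 15.2 and 14.2 CPM (1.16, SE 0.12, adjusted p = 1.3e-07). SUSD2, a sushi-domain membrane protein, rose by 1.19 (SE 0.18, adjusted p = 0.00011), from 3.42 ± 0.662 to 7.75 ± 0.732 CPM. S100A9, a calcium-binding protein of the calprotectin complex, rose by 1.28 (SE 0.23, adjusted p = 0.0014), from 1.55 ± 0.106 to 3.76 ± 0.957 CPM. Its C269S replicate 1, at 2.65 CPM, lay below the other two at 4.31 and 4.32 CPM and above all PCDH libraries. PODXL, the sialomucin podocalyxin, rose by 0.72 (SE 0.06, adjusted p = 4e-10), SERPIND1, the thrombin inhibitor heparin cofactor II, by 0.76 (adjusted p = 0.00032) and CDA, cytidine deaminase, by 0.81 (adjusted p = 0.0026). These 7 genes were called in every fit that left out 1 library. DENND2A (0.90), ABCA13 (0.77) and IL1R2 (0.76), all under 9 CPM, were called in the full fit but lost the call when single libraries were left out. For DENND2A these were PCDH replicates 1 and 2 and C269S replicates 2 and 3 (highest adjusted p = 0.20), for ABCA13 PCDH replicate 1 and C269S replicates 2 and 3 (0.15), and for IL1R2 all but PCDH replicate 3 (0.17).

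For PI3, CD24, S100A9 and CDA the mean of the single mutant lay farther from the vector. IDH1mt differed from PCDH by 1.60, 1.91, 2.75 and 1.62 in these genes. The direct test of C269S against IDH1mt gave -0.57 for PI3 (adjusted p = 8.6e-10), -0.75 for CD24 (9.3e-06), -1.47 for S100A9 (3.4e-06) and -0.81 for CDA (0.00023), all adjusted p from edgeR. For SUSD2 and SERPIND1 that difference did not pass (0.16 and -0.26, adjusted p = 0.70 and 0.26).

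**Figure D3:**
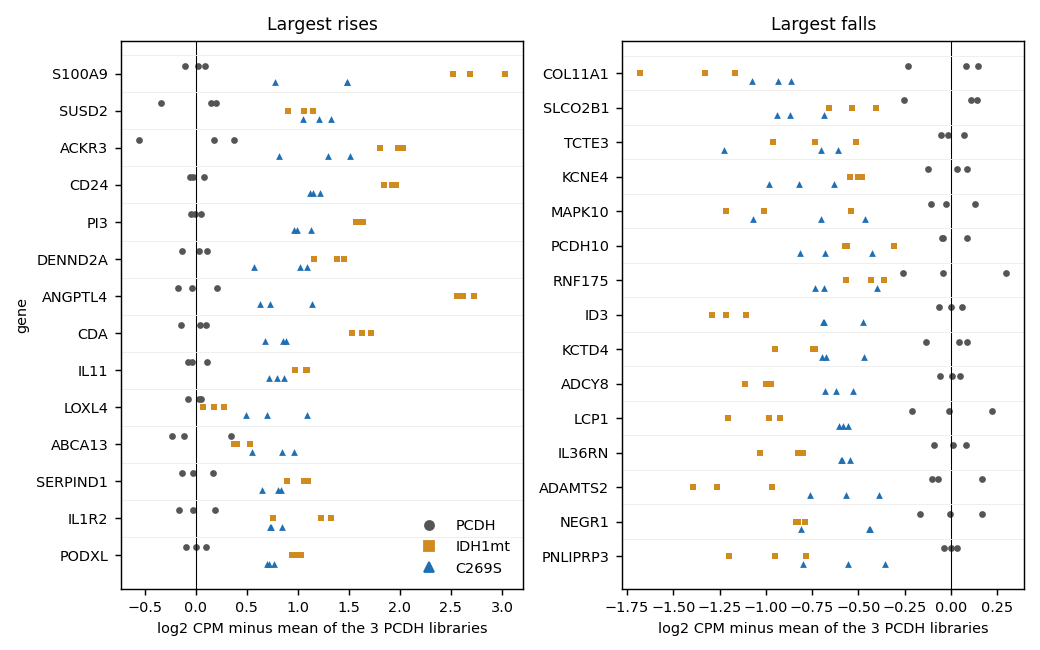
Each point is 1 library, plotted as log2 CPM minus the mean of the 3 PCDH libraries, for the called protein-coding genes averaging at least 1 log2 CPM with the largest rises (left, IDH1 left out) and falls (right). Grey circles are PCDH, orange squares IDH1mt and blue triangles C269S. In every gene shown the C269S and PCDH points do not overlap, which the rule for choosing these genes required.

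Among genes chosen by the same filter, COL11A1 had the largest fall. Below that level, DUXA, a homeobox gene singled out after its values were seen, fell further (-1.78, adjusted p = 0.024 in edgeR), from 1.86 ± 0.120 to 0.536 ± 0.0964 CPM, and kept its call only without PCDH replicate 3 (highest adjusted p = 0.15). COL11A1, the alpha-1 chain of type XI collagen, had 18.2, 17.4 and 14.02 CPM in PCDH and 7.81, 8.61 and 9.05 CPM in C269S. All C269S libraries lay well below all PCDH libraries, and the log2 fold change was -0.96 (SE 0.14, adjusted p = 7.1e-05 in edgeR). KCNE4, an accessory subunit of voltage-gated potassium channels, fell by 0.81 (SE 0.11, adjusted p = 1.6e-05), from 24.6 ± 1.83 to 14.04 ± 1.71 CPM. ADCY8, a calcium-stimulated adenylyl cyclase, went from 120, 116 and 111 CPM to 72.2, 75.5 and 80.2 CPM (-0.61, SE 0.07, adjusted p = 5.5e-07). KCTD4 (-0.61), LCP1 (-0.59), the actin-bundling protein plastin 2, and IL36RN (-0.58), the antagonist of the interleukin-36 receptor, also fell in every fit that left out 1 library. The other large falls, except that of ID3 described with the BMP pathway, each lost the call with some library left out. SLCO2B1 (-0.83), an organic anion transporter, did so without PCDH replicate 1 or C269S replicates 1 or 2 (highest adjusted p = 0.085), and PCDH10 (-0.63) without PCDH replicate 2 or C269S replicates 1 or 2 (0.12). ADAMTS2 (-0.57) did so without PCDH replicate 2 or C269S replicates 2 or 3 (0.15), MAPK10 (-0.73), the neuronal JNK kinase, without PCDH replicates 1 or 2 or C269S replicates 1 or 3 (0.17), and PNLIPRP3 (-0.56) without PCDH replicates 1 or 2 or C269S replicates 2 or 3 (0.23). TCTE3 (-0.82, 0.30) lost it with every library except PCDH replicate 3, RNF175 (-0.62, 0.24) with every one except PCDH replicate 1, and NEGR1 (-0.56, 0.18) with all 6. Between the mutants ADCY8 was higher in C269S (0.42, adjusted p = 0.00012), and COL11A1 (0.41, adjusted p = 0.13) and KCNE4 (-0.30, adjusted p = 0.13) did not pass.

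Collagen chains were among the lower genes. Of 22 listed chains tested, with a median log2 fold change of -0.05, none were called higher (0.883% of all genes) and 6 lower (0.533%). Besides COL11A1 these were COL1A1 and COL1A2, the chains of type I collagen, COL6A1 and COL6A2, chains of the microfibrillar type VI collagen, and COL8A1. COL1A2 had 2226, 2269 and 2158 CPM in PCDH and 1635, 1522 and 1647 CPM in C269S, a fall of 0.47 (SE 0.05, adjusted p = 2.6e-07 in edgeR) with no overlap. COL1A1 had 1365, 1288 and 1265 CPM against 974, 980 and 1087 CPM, a fall of 0.37 (adjusted p = 5.9e-05). Both of these and COL11A1 kept their calls whichever library was left out. COL6A1 (-0.24) was no longer called without PCDH replicate 2 or C269S replicates 1 or 2 (highest adjusted p = 0.14), COL6A2 (-0.20) also without PCDH replicate 1 (0.26), and COL8A1 (-0.28) without C269S replicates 1 or 3 (0.12). The collagen count was 5, 4 and 6 without PCDH replicates 1, 2 and 3, and 3, 4 and 5 without C269S replicates 1, 2 and 3. By edgeR at an unadjusted p under 0.05, 1 listed chain was higher and 6 were lower, beside 12% of all genes in either direction. DESeq2 and limma-voom called 0 higher and 6 lower. COL15A1, a collagen chain outside the list singled out after its values were seen, was called higher. It kept the call whichever library was left out, with log2 fold changes of 0.33 to 0.39 (highest adjusted p = 0.011 in edgeR). COL1A2 was higher in C269S than in IDH1mt (0.33, adjusted p = 2.5e-05). COL1A1 passed narrowly (0.19, adjusted p = 0.034), a call lost in the fits that dropped any IDH1mt replicate or C269S replicates 2 or 3 (highest adjusted p = 0.21).

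Other matrix genes went both ways. Of 27 listed matrix glycoproteins and cross-linking enzymes, 3 rose and 4 fell, beside 0.883% and 0.533% of all genes. FN1, fibronectin (ENSG00000115414, chr2:215360440-215436172 on GRCh38), had 10210, 10540 and 11330 CPM in PCDH and 14520, 14850 and 14440 CPM in C269S. Its log2 fold change was 0.45 (SE 0.05, adjusted p = 5.5e-07 in edgeR). LOXL4, a lysyl oxidase-like enzyme, went from 8.21, 8.98 and 8.87 CPM to 12.2, 14.1 and 18.5 CPM (0.78, SE 0.14, adjusted p = 0.0013). The third, EFEMP1 (fibulin-3), rose by 0.49 (adjusted p = 0.013), a call lost without PCDH replicates 1 or 2 or C269S replicate 1 (highest adjusted p = 0.13). LOX itself, the enzyme that cross-links collagen and elastin, went the other way, from 678, 684 and 798 CPM to 566, 563 and 518 CPM (-0.39, adjusted p = 9.2e-05). SPP1, osteopontin, fell by 0.41 (adjusted p = 0.00019). LOXL1 (-0.27) and TGFBI (-0.22), a secreted adhesion protein, were lower. Both lost the call without C269S replicates 1 or 2, LOXL1 also without PCDH replicate 2 and TGFBI without PCDH replicate 1 (highest adjusted p = 0.18 and 0.077). The counts with single libraries left out were 2 to 6 higher and 2 to 4 lower. The 6 came without PCDH replicate 3, and the 2 lower without C269S replicates 1 and 2. Outside the list, and singled out after their values were seen, LOXL3 and EFEMP2 were called lower and SMOC1, SPOCK1 and MATN2 higher. Of these, SPOCK1 alone kept its call whichever library was left out.

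TIMP1, an inhibitor of matrix metalloproteases, rose against both other groups. It had 2394, 2296 and 2510 CPM in PCDH, 2388, 2358 and 2378 CPM in IDH1mt, and 3164, 3062 and 3439 CPM in C269S. The IDH1mt libraries lay within the range of PCDH and the C269S libraries above both. The log2 fold change of C269S was 0.42 against PCDH (SE 0.05, adjusted p = 1.8e-06 in edgeR) and 0.44 against IDH1mt (adjusted p = 2.3e-07), while IDH1mt against PCDH gave -0.02 (adjusted p = 0.89). C269S also exceeded IDH1mt for LOXL4 (0.61, adjusted p = 0.0059, but 0.11 without C269S replicate 3), where IDH1mt against PCDH gave 0.17 (adjusted p = 0.48), and for FN1 (0.23, adjusted p = 0.0039, but 0.092 without IDH1mt replicate 1). SLC20A1, a phosphate transporter outside the lists that was singled out after its values were seen, rose by 0.40 against PCDH (adjusted p = 4.4e-06) and by 0.22 against IDH1mt (adjusted p = 0.0059).

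**Figure D4:**
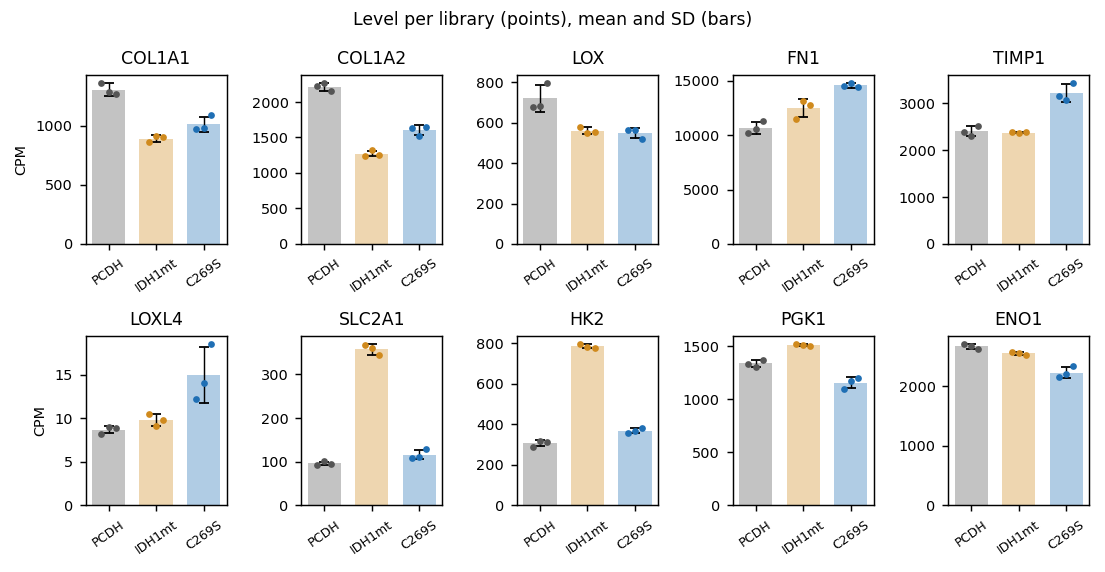
Bars give the mean CPM of each group with its SD (n = 3), points the single libraries, for 6 matrix genes and 4 glycolysis genes. COL1A1, COL1A2 and LOX are lower and FN1, TIMP1 and LOXL4 higher in C269S than in PCDH. For SLC2A1 and HK2 the IDH1mt bars stand far above both other groups, and for PGK1 and ENO1 the C269S bars are the lowest.

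Of the matrix metalloproteases and ADAM proteases, 1 of 23 rose and 3 fell, beside 0.883% and 0.533% of all genes. MMP1, interstitial collagenase, was higher by 0.33, and ADAM12 (-0.26), ADAMTS1 (-0.26) and ADAMTS2, the procollagen N-proteinase, were lower. MMP1 was no longer called without PCDH replicates 1 or 2 or C269S replicates 1 or 2 (highest adjusted p = 0.21), ADAM12 without PCDH replicate 2 or C269S replicate 1 (0.074), and ADAMTS1 without PCDH replicate 2 or any C269S replicate (0.10). Without PCDH replicate 2 none of the 23 were called, and without C269S replicates 1 or 2 the count was 0 higher and 1 lower. Of 16 protease inhibitors and secreted epithelial proteins, PI3, TIMP1 and TFPI2 rose and none fell, beside 0.883% and 0.533% of all genes. Outside the list, SERPIND1 rose. CSTB (cystatin B), an inhibitor of cysteine proteases singled out after its values were seen, fell, as described elsewhere here. TFPI2, a Kunitz-type inhibitor, was higher by 0.22 (adjusted p = 0.011 in edgeR), and its call was lost without PCDH replicates 1 and 2 and C269S replicates 1 and 2 (highest adjusted p = 0.11). Without PCDH replicate 3, 5 of the 16 were called higher.

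Some negative feedback genes of the ERK pathway were higher. Such genes are induced when ERK kinases are active, and their products dampen the pathway. Of 30 feedback and immediate early genes tested, 6 rose and none fell, beside 0.883% and 0.533% of all genes. LIF, a cytokine among these 6, is counted again with the cytokines below. The median log2 fold change was 0.19 beside -0.01 over all genes, and 26 of the 30 were positive, beside 8106 of all 16874. DUSP6, a phosphatase that inactivates ERK, had 90.5, 88.2 and 97.1 CPM in PCDH and 146, 148 and 148 CPM in C269S, a rise of 0.68 (SE 0.06, adjusted p = 7.4e-09 in edgeR) with no overlap. DUSP5, the nuclear ERK phosphatase, had 53.5, 54.0 and 59.4 CPM against 81.9, 71.5 and 73.5 CPM (0.44, adjusted p = 0.00046). ERRFI1, an inhibitor of the EGF receptor, went from 246, 246 and 267 CPM to 335, 318 and 307 CPM (0.34, SE 0.05, adjusted p = 0.00032). These 3 kept their calls whichever library was left out, whereas SPRY4 (0.37) lost its call without C269S replicate 3 (adjusted p = 0.069), IER3 (0.23) without PCDH replicate 2 or C269S replicates 1 or 3 (highest 0.15), and LIF (0.22) without any 1 C269S replicate (highest 0.090). Other members did not pass: FOSL1 had a log2 fold change of 0.17 (adjusted p = 0.11), EGR1 0.30 (adjusted p = 0.077), SPRY2 0.10 (adjusted p = 0.58) and DUSP4 0.04 (adjusted p = 0.88). The count was 6, 5 and 11 without PCDH replicates 1, 2 and 3, and 4, 5 and 3 without C269S replicates 1, 2 and 3. At an unadjusted p under 0.05 edgeR gave 15 higher and 1 lower, beside 12% of all genes in either direction. DESeq2 called 10 higher and 0 lower, and limma-voom 6 and 0.

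ERRFI1 was far higher in IDH1mt (662 CPM on average), and C269S lay below it (-1.05, adjusted p = 6.1e-15 in edgeR). For DUSP5 the difference between the mutants did not pass (-0.11, adjusted p = 0.51). DUSP6 passed narrowly (-0.23, adjusted p = 0.016), a call lost without IDH1mt replicates 1 and 3 and C269S replicates 1 and 2 (highest adjusted p = 0.11).

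Growth factor genes changed in both directions. Of 28 listed ligands and receptor kinases, 3 were higher and 2 lower, beside 0.883% and 0.533% of all genes. TGFA, a ligand of the EGF receptor, went from 112, 116 and 139 CPM in PCDH to 173, 179 and 159 CPM in C269S (0.48, SE 0.07, adjusted p = 6.9e-05 in edgeR). FGF2, basic fibroblast growth factor, went from 446, 455 and 480 CPM to 625, 614 and 519 CPM (0.35, adjusted p = 0.00066). PCDH replicate 3 was the highest of its group for both and still lay below all C269S libraries. PDGFRA, a receptor of platelet-derived growth factor, was higher by 0.63 (adjusted p = 0.019), and HGF (-0.36) and BDNF (-0.29) were lower. PDGFRA was no longer called without PCDH replicate 1 or C269S replicates 1 or 2 (highest adjusted p = 0.17), HGF without PCDH replicate 2 or C269S replicates 2 or 3 (0.12), and BDNF with every library except PCDH replicate 1 (0.14). The counts were 2 to 6 higher, the 6 without PCDH replicate 3, and 0 to 2 lower. The 0 came from dropping PCDH replicate 2 or C269S replicates 2 or 3. Outside the list, and singled out after their values were seen, the receptor kinase NTRK3 was called higher and the growth factor PTN lower. NTRK3 lost the call with every library except PCDH replicate 3, and PTN without PCDH replicates 1 or 2 or C269S replicates 1 or 3 (highest adjusted p = 0.17 and 0.15). HGF, the ligand of the MET receptor, stood at 19.3 CPM in IDH1mt, so that C269S exceeded IDH1mt by 1.72 (adjusted p = 1.3e-14). TGFA and FGF2 were lower in C269S than in IDH1mt (-0.71 and -0.52, adjusted p = 1.3e-08 and 2.3e-07).

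Over all genes 0.883% rose and 0.533% fell. Of 22 interleukins, colony-stimulating factors, chemokines and related receptors, 9 rose, 1 fell and 12 were not called, with a median log2 fold change of 0.24. To show the DNA next to 2 of these genes and to FN1, the 250 bases before the RefSeq transcription start on GRCh38.p14 are printed 5′ to 3′ on the gene's strand. Capitals mark matches to the motifs AP-1 (TGANTCA), the cAMP response element (TGACGTCA), NF-kB (GGG, any 2 bases, then TTTCC), the CCAAT box (CCAAT) and the TATA box (TATAAA), searched on both strands.

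IL11 promoter: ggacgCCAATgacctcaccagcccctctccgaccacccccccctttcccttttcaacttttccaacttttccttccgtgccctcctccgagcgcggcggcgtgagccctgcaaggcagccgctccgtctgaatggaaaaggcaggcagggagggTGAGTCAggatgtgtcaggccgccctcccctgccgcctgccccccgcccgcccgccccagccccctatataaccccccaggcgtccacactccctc

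CCL20 promoter: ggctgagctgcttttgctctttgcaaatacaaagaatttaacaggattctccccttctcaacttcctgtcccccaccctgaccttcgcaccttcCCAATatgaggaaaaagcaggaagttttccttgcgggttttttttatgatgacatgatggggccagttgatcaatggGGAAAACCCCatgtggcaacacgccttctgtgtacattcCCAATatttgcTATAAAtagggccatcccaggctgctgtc

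FN1 promoter: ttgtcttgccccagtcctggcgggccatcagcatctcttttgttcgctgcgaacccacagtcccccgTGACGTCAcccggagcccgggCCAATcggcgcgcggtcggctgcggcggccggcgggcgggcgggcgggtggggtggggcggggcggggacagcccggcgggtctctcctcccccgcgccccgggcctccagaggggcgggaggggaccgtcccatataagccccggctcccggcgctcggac

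The windows are chr19:55370464-55370713 (minus strand) for IL11, chr2:227813592-227813841 (plus strand) for CCL20 and chr2:215436069-215436318 (minus strand) for FN1. IL11 held an AP-1 match 96 to 90 bases before the start. CCL20 held an NF-kB match on the reverse strand at 79 to 70 bases and a TATA box at 29 to 24 bases. FN1 held a cAMP response element at 183 to 176 bases, and each window held at least 1 CCAAT box. Of all 27305 promoters in the table, 6.6% held the AP-1 motif, 1.77% the cAMP response element, 1.73% the NF-kB motif, 33% CCAAT and 11.1% TATAAA. A promoter was found for 111 of the genes called higher and 60 of those called lower. AP-1 was in 9.01% and 11.7% of these, NF-kB in 3.6% and 1.67%, and TATAAA in 14.4% and 6.67%, beside 4.46%, 1.94% and 5.62% of the 11123 tested genes with a promoter. The cAMP response element was in 2.7% and 6.67%, beside 2.74%, and CCAAT in 34.2% and 26.7%, beside 34.7%. These matches describe letters in the windows and say nothing of binding.

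IL11, a cytokine of the interleukin-6 family, had 413, 469 and 422 CPM in PCDH and 790, 715 and 753 CPM in C269S. The groups did not overlap, and the rise of 0.79 (SE 0.06, adjusted p = 4.4e-11 in edgeR) was 1.73-fold. CCL20, the ligand of CCR6, went from 12.7, 12.9 and 12.0 CPM to 20.4, 23.8 and 17.4 CPM (0.71, SE 0.11, adjusted p = 0.00022). CSF3, granulocyte colony-stimulating factor, went from 3157, 3004 and 3133 CPM to 3736, 3540 and 3806 CPM (0.25, SE 0.05, adjusted p = 0.0018). These 3 were called whichever library was left out. ACKR3, a scavenger receptor for chemokines, had 1.48, 1.69 and 0.887 CPM against 2.30, 3.19 and 3.72 CPM (1.19, adjusted p = 0.013), and lost its call without C269S replicates 2 and 3 (0.063 and 0.079). IL6 (0.26), CXCL8 (0.30), LIF (0.22), CSF1 (0.26) and CXCL3 (0.24) were called higher in the full fit but not in every fit that left out 1 library. IL6 was no longer called without PCDH replicate 2 or C269S replicates 1 or 2 (highest adjusted p = 0.065), and CXCL8, interleukin-8, without PCDH replicates 1 or 2 or C269S replicates 1 or 2 (0.10). CSF1 lost it without PCDH replicate 2 or C269S replicates 1 or 3 (0.15), and CXCL3 without PCDH replicates 1 or 2 or C269S replicates 1 or 2 (0.26).

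CXCL1, a neutrophil-attracting chemokine, was the member that fell, from 115, 100.2 and 112 CPM to 87.6, 86.97 and 86.5 CPM (-0.33, adjusted p = 0.0052, but 0.054 without PCDH replicate 1). CXCL2, a related chemokine, had a log2 fold change of -0.11 (adjusted p = 0.35). Without PCDH replicates 1, 2 and 3, 7, 5 and 11 of the 22 were called higher, and 4, 4 and 6 without C269S replicates 1, 2 and 3. C269S against IDH1mt gave -0.25 for IL11 (adjusted p = 0.0042 in edgeR, but 0.057 without C269S replicate 2 and 0.052 without IDH1mt replicate 3), -0.47 for CCL20 (0.0049, but 0.057 without C269S replicate 3), -0.01 for CSF3 (0.94) and 0.56 for CXCL1 (7.4e-07).

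NF-kB subunits and feedback targets respond to the same inflammatory signals as many cytokines. Of 21 tested, PTGS2 alone was called, beside 1.42% of all genes, and the median was -0.04. PTGS2, the inducible cyclooxygenase, had 451, 471 and 523 CPM in PCDH and 715, 637 and 591 CPM in C269S (0.43, SE 0.06, adjusted p = 0.00011 in edgeR), and it stayed called with each library left out. NFKBIA (-0.09, adjusted p = 0.59), TNFAIP3 (-0.15, adjusted p = 0.33), NFKB1 (-0.14, adjusted p = 0.43) and SOD2 (-0.16, adjusted p = 0.13) did not pass.

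Of 31 integrins, laminins and adhesion molecules, 6 rose and 1 fell, beside 0.883% and 0.533% of all genes, with a median of 0.11. ITGA2, a collagen receptor subunit, went from 208, 214 and 249 CPM in PCDH to 293, 321 and 275 CPM in C269S (0.41, SE 0.07, adjusted p = 0.00033 in edgeR). ITGA11, another collagen receptor subunit, had 17.1, 13.5 and 13.6 CPM against 23.9, 21.98 and 19.9 CPM (0.58, adjusted p = 0.0024). LAMB3, the beta-3 chain of laminin-332, had 147, 147 and 149 CPM against 186, 189 and 204 CPM (0.39, adjusted p = 7.1e-05), while LAMA4, a laminin chain of endothelial and mesenchymal basement membranes, fell by 0.45 (adjusted p = 0.0022). These 4, like CD24, kept their calls with each library left out. LAMA5 (0.31) was lost without C269S replicate 3 (adjusted p = 0.062), and CD44 (0.21), the hyaluronan receptor, without PCDH replicates 1 and 2 and C269S replicates 1 and 2 (highest 0.093). ITGB1, the common beta-1 chain, had a log2 fold change of -0.02 (adjusted p = 0.93). Without PCDH replicate 3 the count was 9 higher and 2 lower, and without each other library 5 higher and 1 lower. ITGA2, ITGA11 and LAMB3 were lower in C269S than in IDH1mt (-0.61, -0.51 and -0.40, adjusted p = 9.5e-08, 0.0018 and 9.6e-06).

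In the TGF-beta and BMP pathway, 3 of 27 genes rose and 1 fell, beside 0.883% and 0.533% of all genes. ID3, an inhibitor of basic helix-loop-helix factors and a direct target of BMP signalling, had 109.7, 114 and 105 CPM in PCDH and 68.0, 67.9 and 78.8 CPM in C269S, a fall of 0.61 (SE 0.07, adjusted p = 1.8e-06 in edgeR). Other BMP targets did not pass: ID1 had -0.03 (adjusted p = 0.88), ID2 -0.14 (adjusted p = 0.50) and SMAD7 0.05 (adjusted p = 0.87). INHBA, a subunit of activin A, went from 26.4, 29.8 and 33.7 CPM to 43.7, 46.4 and 39.2 CPM (0.52, SE 0.09, adjusted p = 0.0011). ID3 and INHBA kept their calls throughout. The receptors TGFBR1 (0.35) and TGFBR2 (0.32) were higher. TGFBR1 was no longer called without PCDH replicates 1 or 2 or C269S replicates 1 or 2 (highest adjusted p = 0.11) and TGFBR2 without PCDH replicate 1 or C269S replicate 1 (0.094). The count higher was 1 without PCDH replicate 1 or C269S replicate 1 and 5 without PCDH replicate 3. Outside the list, 2 genes singled out after their values were seen were called higher whichever library was left out. They were NBL1, a BMP antagonist (0.42 to 0.58 in these fits), and LRRC32, which binds latent TGF-beta (0.43 to 0.59). ID3 was higher in C269S than in IDH1mt (0.59, adjusted p = 1.5e-06), where it averaged 47.6 CPM.

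Among 26 Wnt and Notch genes, LGR4 (0.35), a receptor for R-spondins, and NOTCH2 (0.28) rose, and among 19 YAP and TAZ genes WWTR1 (0.30), which encodes TAZ. LGR4 was no longer called without PCDH replicate 1 or C269S replicate 1 (highest adjusted p in edgeR 0.094), NOTCH2 without PCDH replicates 1 or 2 or C269S replicate 2 (0.17), and WWTR1 without PCDH replicates 1 or 2 or C269S replicates 1 or 2 (0.13). The Wnt and Notch count was 0, 1 and 4 without PCDH replicates 1, 2 and 3, and 1, 1 and 2 without C269S replicates 1, 2 and 3. Of 36 genes of cyclic AMP and G protein signalling, S1PR3, a receptor for sphingosine 1-phosphate, rose in every such fit (0.39, SE 0.05, adjusted p = 3.2e-05), from 288, 306 and 319 CPM to 391, 405 and 398 CPM, and ADCY8 fell. Of 27 ion channels and solute transporters, KCNE4, SLCO2B1 and SLC12A8 (-0.44) fell. SLC12A8 was no longer called without PCDH replicates 1 or 2 or C269S replicates 1 or 2 (highest adjusted p = 0.24). The list had 3 higher and 4 lower without PCDH replicate 3, and 1 lower without PCDH replicate 1 and without C269S replicates 1 or 2. Of 16 S100 proteins and keratins, S100A9 and S100A3 (0.45) rose, and S100A3 was no longer called without PCDH replicates 1 or 3 or C269S replicates 1 or 3 (highest 0.20).

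Of 33 hypoxia response genes, 4 rose, 2 fell and 27 were not called, with a median log2 fold change of 0.03. Over all genes 0.883% rose and 0.533% fell. ANGPTL4, an inhibitor of lipoprotein lipase, had 13.1, 11 and 10.0 CPM in PCDH and 17.5, 18.7 and 24.9 CPM in C269S (0.85, SE 0.12, adjusted p = 6.9e-05 in edgeR). BHLHE40, a transcriptional repressor, rose by 0.26 (adjusted p = 0.0041). SLC2A1 (0.28), the glucose transporter GLUT1, and EPAS1 (0.22), which encodes HIF-2alpha, were called in the full fit. SLC2A1 lost the call without PCDH replicate 1 or C269S replicate 3, and EPAS1 without PCDH replicate 2 or C269S replicates 1 or 2 (highest adjusted p = 0.11 for both). CA9, a carbonic anhydrase that is a standard marker of hypoxia, had 206, 209 and 183 CPM against 141, 144 and 158 CPM, a fall of 0.43 (SE 0.06, adjusted p = 7.2e-05), and LOX was the other gene that fell. Of the familiar targets that did not pass, VEGFA had -0.10 (adjusted p = 0.57) and HILPDA 0.08 (adjusted p = 0.79). Without PCDH replicate 3, 7 were higher and 3 lower. In the direct test, C269S lay below IDH1mt for ANGPTL4 (-1.79, adjusted p = 1.2e-12), SLC2A1 (-1.62, 4.1e-18), VEGFA (-0.83, 5.7e-11) and HILPDA (-2.49, 4.1e-18).

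Several glycolytic enzymes were lower than in the vector cells. Of 21 glycolysis and lactate genes, 5 fell and 2 rose, beside 0.533% and 0.883% of all genes, with a median of -0.14. ENO1, alpha-enolase, had 2708, 2686 and 2625 CPM in PCDH and 2156, 2203 and 2337 CPM in C269S (-0.26, SE 0.05, adjusted p = 0.0014 in edgeR). TPI1, triosephosphate isomerase, had 1110, 1102 and 1091 CPM against 843, 897 and 957 CPM (-0.29, SE 0.05, adjusted p = 0.0010). Both kept their calls with each library left out and showed no overlap. PGK1 (-0.21), phosphoglycerate kinase, ENO2 (-0.25), gamma-enolase, and PFKL (-0.29), the liver-type phosphofructokinase, were called in the full fit. All 3 lost the call without PCDH replicate 1 or C269S replicates 1 or 2, and ENO2 and PFKL also without PCDH replicate 2 (highest adjusted p = 0.19, 0.088 and 0.15). HK2, hexokinase 2, which starts the pathway, rose with SLC2A1, from 290, 319 and 310 CPM to 358, 366 and 382 CPM (0.26, SE 0.05, adjusted p = 0.0040, but 0.054 without PCDH replicate 1). LDHA (-0.14, adjusted p = 0.16) and GAPDH (-0.13, adjusted p = 0.26) did not pass. The lower count was 2, 3 and 9 without PCDH replicates 1, 2 and 3, and 2, 2 and 7 without C269S replicates 1, 2 and 3, with 0, 2, 4, 2, 2 and 1 higher in the same order. At an unadjusted p under 0.05 edgeR gave 13 lower and 4 higher, beside 12% of all genes in either direction.

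PGK1 and ENO2 were lower in C269S than in IDH1mt as well (-0.39 and -0.33, adjusted p = 1.5e-06 and 0.00011 in edgeR), as was HK2 (-1.09, 6.2e-16). For ENO1 the difference was -0.20 (adjusted p = 0.0088, but 0.066 without IDH1mt replicate 1, and 0.086 and 0.061 with C269S replicates 1 and 2 dropped), and for TPI1 -0.07 (adjusted p = 0.54). In IDH1mt against PCDH, PGK1 rose by 0.18 (adjusted p = 0.012), ENO1 gave -0.06 (adjusted p = 0.42) and TPI1 fell by 0.22 (adjusted p = 0.0029).

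The counts for genes nearer the enzyme itself are small and stand beside the 1.42% called over all genes. Of 29 genes of the TCA cycle, the IDH family and 2-hydroxyglutarate metabolism, 2 were called higher by edgeR, IDH1 among them, and none lower. Leaving out PCDH replicate 1, or C269S replicate 1 or 2, left 1 call. IDH2 had a log2 fold change of 0.13 (adjusted p = 0.39) and D2HGDH, which removes D-2-hydroxyglutarate, 0.07 (adjusted p = 0.86). Of 15 genes of the mitochondrial genome, whose nuclear copies make counts uncertain, MT-ND1 was called (0.24, adjusted p = 0.022). It lost the call without PCDH replicates 1 and 2 and C269S replicates 1 and 3 (highest 0.19), and without PCDH replicate 3 the count was 4. Of 29 palmitoyltransferases and thioesterases, which attach and remove palmitate, 0 were called by edgeR, DESeq2 or limma-voom, with 0 higher and 1 lower at an unadjusted p under 0.05 and log2 fold changes between -0.19 and 0.13. Of 35 listed dioxygenases that use 2-oxoglutarate, edgeR and limma-voom called 0 and DESeq2 1 higher and 1 lower. At an unadjusted p under 0.05 edgeR gave 3 higher and 2 lower among the 35, beside 12% of all genes in either direction. Their log2 fold changes lay between -0.20 and 0.22, with TET2 at 0.17 (adjusted p = 0.61), ASPH at -0.02 (0.93) and PLOD2 at -0.08 (0.59). The fit without PCDH replicate 3 called 1 of the 35 higher. P3H3 and P4HTM, prolyl hydroxylases of this enzyme class outside the list, were singled out after their values were seen. Both were called lower by edgeR (-0.38 to -0.27 and -0.38 to -0.24 with single libraries left out). Both lost the call without PCDH replicates 1 or 2 or C269S replicates 1 or 2 (highest adjusted p = 0.12 and 0.29). Among the palmitoyltransferases ZDHHC5 had 0.08 (adjusted p = 0.65), and the thioesterase PPT1 -0.05 (0.79).

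The lipid lists gave 1 or 2 calls each, beside 1.42% of all genes. In cholesterol synthesis and transport, 2 of 26 rose and none fell, with a median of -0.03. SQLE, squalene epoxidase, went from 97.8, 104 and 112 CPM in PCDH to 136, 145 and 131 CPM in C269S (0.39, SE 0.06, adjusted p = 0.00028 in edgeR). The count was 1 without C269S replicate 2. Of 31 fatty acid genes, ACSL4 alone was called (0.24, adjusted p = 0.044, lost without PCDH replicates 1 and 2 and C269S replicates 1 and 2, highest 0.28), and without PCDH replicate 3 there were 4 higher and 1 lower. Of 20 lipid droplet genes ANGPTL4 alone was called, and ACLY (-0.00, adjusted p = 0.99) and MGLL (-0.10, adjusted p = 0.50), the members of the fatty acid and lipid droplet lists with the highest CPM, did not pass. Of 26 NRF2 and glutathione genes, AKR1C1 (0.29, adjusted p = 0.0028, but 0.068 without C269S replicate 1) and HMOX1, heme oxygenase 1 (0.29, adjusted p = 0.019, lost without PCDH replicates 1 or 2 or C269S replicates 1 or 3, highest 0.13) rose. This list had 3 higher and 2 lower without PCDH replicate 3, and without C269S replicate 1 none.

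No gene in the lists for proliferation, the ATF4 and unfolded protein responses or interferon was called in either direction by edgeR's test. Over all genes 1.42% were called, so 0 calls in lists of 20 to 37 genes lies near that share. Outside these lists, HMOX1 rose and the heat shock gene HSPB1 fell, as described elsewhere here. HAUS5, a spindle gene singled out after its values were seen, was called lower. It lost the call without PCDH replicates 1 or 2 or C269S replicates 1 or 2 (highest adjusted p = 0.27 in edgeR). None of 37 DNA replication genes (1 higher and 5 lower at an unadjusted p under 0.05), 30 mitosis genes (0 and 0), 20 p53 targets (2 and 3), 36 cytosolic ribosomal proteins (0 and 2) or 22 antigen presentation genes (4 and 2) passed, and DESeq2 and limma-voom called 0 in each of these. Among 28 genes of the ATF4 and unfolded protein responses, edgeR and limma-voom called 0 and DESeq2 1 higher, with 2 higher and 1 lower at an unadjusted p under 0.05. Of 29 interferon-stimulated genes, edgeR and limma-voom called 0 and DESeq2 1 lower, with 0 higher and 4 lower at an unadjusted p under 0.05. Over all genes, 12% had an unadjusted p under 0.05 in edgeR. The median of the interferon list was -0.15, and 9 of its 29 genes had a positive value. Without PCDH replicate 3, edgeR called 3 mitosis genes, 1 replication gene, 1 p53 target and 2 ATF4 genes higher, and 2 interferon-stimulated, 2 ribosomal and 1 ATF4 gene lower. Without C269S replicate 3 it called 1 replication and 1 ATF4 gene higher and 1 replication gene lower. Among the members with the highest CPM, TOP2A and MKI67 both had a log2 fold change of 0.07, MCM4 -0.05, RRM1 -0.07, RPL3 -0.03, RPLP0 -0.05, B2M -0.04, HLA-B -0.06, HSPA5 0.12, HSP90B1 -0.07, STAT2 -0.18 and TNFRSF10B 0.12, none of which passed. CDKN1A, the cell cycle inhibitor p21, was at 378, 394 and 368 CPM in PCDH and 367, 368 and 390 CPM in C269S (-0.02, adjusted p = 0.93), while C269S exceeded IDH1mt by 0.50 (adjusted p = 5.5e-08).

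**Figure D5:**
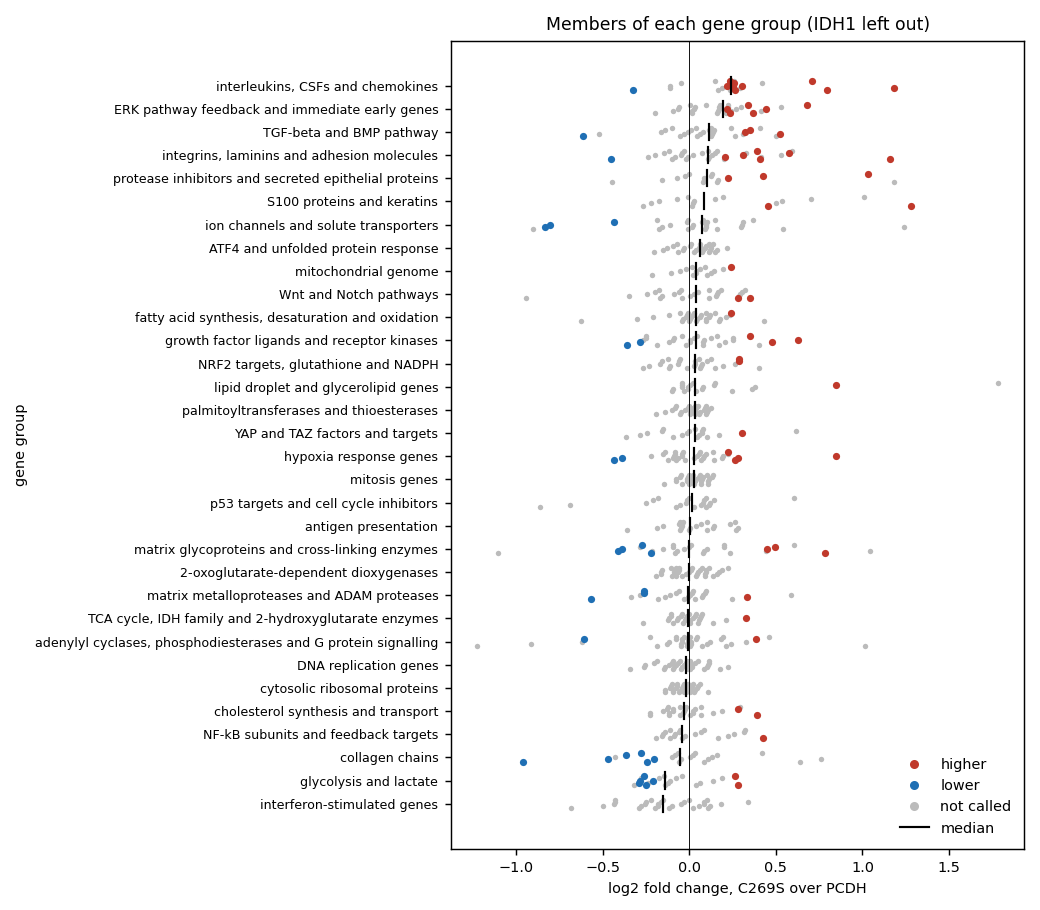
Each point is 1 tested member of a gene group, by its log2 fold change of C269S over PCDH, with called genes in red (higher) and blue (lower), other genes in grey and the group median as a black line. IDH1 is left out. The cytokine and ERK feedback groups have the highest medians, 0.24 and 0.19, and the interferon and glycolysis groups the lowest, -0.15 and -0.14.

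Of the called genes of other biotypes, those with the lowest adjusted p in each direction were as follows. AL118508.1, a long non-coding RNA gene, fell, with 14.7, 14.7 and 10.5 CPM in PCDH and 4.64, 5.42 and 5.84 CPM in C269S (-1.32, SE 0.17, adjusted p = 6.1e-06 in edgeR). FKBP9P1, a pseudogene whose reads can be shared with FKBP9, fell by 0.72 (adjusted p = 0.00027), and AC099552.1 by 0.43 (adjusted p = 0.0016). PAX8-AS1, a non-coding transcript next to PAX8, rose by 0.35 (adjusted p = 0.0039). These 4 kept their calls with each library left out, unlike AC104024.2 (1.25), which lost it without PCDH replicates 1 or 2 or C269S replicates 1 or 2 (highest adjusted p = 0.22), and DHFRP1 (0.50), which lost it with every library except PCDH replicate 1 (0.13). AC004466.3, an antisense gene singled out after its values were seen, had 0.885, 1.35 and 0.177 CPM in PCDH and 0, 0.101 and 0.138 CPM in C269S (adjusted p = 0.044), and was called with 1 library left out only where that was PCDH replicate 3 (highest adjusted p = 0.31). Without a stated strand setting, reads of overlapping genes on the other strand cannot be told apart from theirs.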

How the data were processed

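RNA was sequenced from 9 libraries of U87 cells, 3 per group. The deposited count table holds whole-number read counts per gene, which the authors made with HISAT2 version 2.0.5 and featureCounts version 1.5.0-p3 on GRCh38 (hg38), per the submitters' processing notes. A second deposited table holds FPKM values of the same libraries, used as an alternative. Library kit, RNA selection and strand setting are not given in the sources used here, so overlapping and antisense genes cannot be separated. Counts of genes that have close copies are uncertain (for example CD24, FKBP9P1, DHFRP1 and the mitochondrial genes). Column names (Control for PCDH, mt for IDH1mt, CS for C269S) tied the columns to groups.

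Counts were filtered with filterByExpr (16874 of 58735 genes kept), scaled by TMM and fitted with 1 mean per group over all 9 libraries. The test was edgeR's robust quasi-likelihood F test (edgeR version 4.0.16, R version 4.3.3), with Benjamini-Hochberg adjustment across the tested genes. A gene was called, and is said to have risen or fallen, at an adjusted p under 0.05. Fold changes are log2, C269S over PCDH. The SE was taken as the size of the log2 fold change over the square root of F. Levels are TMM-scaled CPM, which are not adjusted for gene length. The tests were tried on simulated counts.

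Named were IDH1; among called protein-coding genes averaging at least 1 log2 CPM whose groups did not overlap, the 15 with the largest rise and the 15 with the largest fall; the 5 called genes with the highest mean CPM in each direction; the 3 called genes of other biotypes with the lowest adjusted p in each direction; and, for each of 32 gene lists, up to 6 called members, or the members with the highest CPM where fewer than 2 were called. List members named with values that did not pass, and all genes in the other observations, were chosen after their values were seen. Some genes that the rule names are not reported here. The comparison, the lists and the rule were chosen with earlier results of these data known. Sequences come from GENCODE release 29 (IDH1) and RefSeq (promoters).

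Alternatives were DESeq2 size factors, library size alone, no filter, at least 1 CPM in 3 libraries, the 6 libraries by themselves, a replicate block, single libraries left out, DESeq2 version 1.42.0, limma-voom and limma on log2 FPKM plus 1 or 0.1 (limma version 3.58.1), an adjusted p under 0.01, and a test against a 1.5-fold change.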

Additional observations from a re-analysis of the deposited data

How the results depend on the processing

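Of the 239 genes called for C269S against PCDH, 149 higher and 90 lower, the count stayed within 1.5 times in each direction with DESeq2 size factors, library size alone, no filter, the CPM filter and limma-voom. With the 6 libraries alone it was 91 higher and 54 lower, with limma on log2(FPKM + 1) 57 and 28, with FPKM + 0.1 59 and 28, at an adjusted p under 0.01 65 and 35, and in the test against a 1.5-fold change 3 and 1. DESeq2 called 232 higher. The causes were not tested, except that a stricter threshold calls fewer genes by construction. Leaving out 1 library gave 65 to 548 higher and 38 to 355 lower. With the replicate number as a block, 111 were higher and 61 lower (172 in all, 167 of them among the 239). Same-numbered PCDH and C269S libraries correlated at 0.002, -0.05 and -0.09 in their deviations from the group means. These values gave no sign of pairing by number, but deviations within groups of 3 cannot exclude it. Library size alone shifted the median log2 fold change of all genes to -0.03 and the share higher among the called to 52.9% from 62.3%. None of the called genes named by the rule changed direction under these alternatives. Of the values of single named genes for C269S against PCDH, 1701 kept their side of the threshold and 471 lost the call, and of the counts in gene lists 930 stayed within 1.5 times and 222 did not. IDH1 stayed called at 2.69 to 2.79. The difference in mitochondrial share, C269S minus PCDH, was 0.12 percentage points, 0.00039 without PCDH replicate 2 and 0.22 without PCDH replicate 3, and its permutation test could not pass at these sample numbers. Genes with few counts were limited by depth.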

Other observations

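Several called genes outside the lists, picked after their values were seen, encode receptors and enzymes of the cell surface and its glycans. BDKRB2, the bradykinin B2 receptor, had 59.6, 54.0 and 54.5 CPM in PCDH and 87.5, 82.4 and 94.0 CPM in C269S, a rise of 0.65 (SE 0.07, adjusted p = 2.8e-07 in edgeR) with no overlap. HAS1, a hyaluronan synthase, went from 378, 434 and 354 CPM to 560, 517 and 610 CPM (0.53, adjusted p = 2.3e-05). CEMIP, a protein involved in hyaluronan breakdown, rose by 0.45 (adjusted p = 3.4e-06), and HS3ST3B1, a heparan sulfate sulfotransferase, by 0.62 (adjusted p = 5.5e-07). F3, tissue factor, rose by 0.47 (adjusted p = 5.5e-07) and TGM2, a transglutaminase, by 0.42 (adjusted p = 1.8e-06). Between the mutants, BDKRB2, F3, HS3ST3B1 and CEMIP were lower in C269S (-0.58, -0.73, -0.39 and -0.26, adjusted p = 2.9e-07, 8.9e-12, 0.00019 and 0.0026), and HAS1 and TGM2 did not pass (adjusted p = 0.68 and 0.77).

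Of other genes picked in the same way, 4 fell. TXNIP, the thioredoxin-interacting protein that restrains glucose uptake, had 1797, 1803 and 1883 CPM in PCDH and 1408, 1304 and 1357 CPM in C269S, a fall of 0.43 (SE 0.05, adjusted p = 8.4e-07 in edgeR) with no overlap. HMGA2, a chromatin protein, fell by 0.29 (adjusted p = 0.0022), HSPB1, a small heat shock protein, by 0.35 (adjusted p = 0.00072) and CSTB, cystatin B, by 0.40 (adjusted p = 0.00032). TMEM132B had 14.4, 15.9 and 18.2 CPM in PCDH and 23.8, 24.3 and 23.6 CPM in C269S, and rose against both PCDH (0.56, adjusted p = 0.0034) and IDH1mt (0.59, adjusted p = 0.00065). All 11 genes of these 2 paragraphs were called for C269S against PCDH whichever library was left out.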
